A study of Mus musculus with 10 samples.

Results

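The Ki67-low cells with intermediate Lgr5 reporter level (Lgr5med_Ki67low, 2 arrays) were compared with the Ki67-high cells with the highest Lgr5 reporter level (Lgr5hi_Ki67hi, 2 arrays). These are 4 of the 10 arrays of the study, chosen by their titles, and the comparison ran across 18820 named genes of the Affymetrix Mouse Gene ST 1.1 array. All cells were epithelial cells of mouse intestine, sorted by flow cytometry on GFP from the Lgr5-EGFP-ires-CreERT2 allele, in which the Lgr5 promoter drives the reporter, and on RFP from the Ki67-TagRFP allele, in which RFP is joined to the end of the Ki67 protein. Lgr5hi_Ki67hi cells were GFP high and RFP high, and Lgr5med_Ki67low cells were GFP medium and RFP low, so both reporters differ between the groups. The other arrays were Lgr5hi_Ki67low (2 arrays) and Lgr5med_Ki67hi (4 arrays), and they entered the fit only to estimate the spread and are described without a test. No treatment is named, and the labels used here do not state age, sex, gut segment or how many mice stand behind an array. Nothing in the labels says that replicates came from separate mice, so a p-value here weighs a difference against the variation among these arrays alone, part of which may be technical.

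Crypt base columnar cells are the Lgr5-positive stem cells at the bottom of the intestinal crypt. Wnt signals maintain them, and they divide and give rise to daughter cells that lose Lgr5 as they leave the crypt base. Notch signalling between neighbours steers daughters towards the absorptive lineage, and cells that escape it turn on Atoh1 and become goblet, Paneth, enteroendocrine or tuft cells, which stop dividing. Goblet cells secrete mucus, enteroendocrine cells release hormones, and tuft cells are chemosensory cells that signal to immune cells. The Lgr5-EGFP allele is known to be active in only some crypts, and green fluorescent protein outlasts the transcript, so a medium signal can mark recent daughters as well as stem cells.

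Of the 18820 genes, 408 (2.17%) passed an adjusted p of 0.05, with 310 (1.65%) higher and 98 (0.521%) lower in Lgr5med_Ki67low. At least 2-fold changes were called in 172 genes (0.914%), 166 higher (0.882%) and 6 lower (0.0319%), and the change was at least 4-fold in 37 higher and 0 lower genes. The median difference over all genes was -0.03 on the log2 scale. Values on the arrays were read as log2 expression, and array medians lay between 4.235 and 4.402. The replicates correlated at 0.9924 in Lgr5med_Ki67low and 0.9945 in Lgr5hi_Ki67hi, and arrays of different groups among these 4 at 0.9895 to 0.9915. In all 408 genes both Lgr5med_Ki67low arrays lay on the same side of both Lgr5hi_Ki67hi arrays, as they did for 49.1% of all genes (20% above and 29.1% below). The number of arrays limits the precision of every value. A fit without 1 of the compared arrays rests that group on a lone sample, which is then assumed to vary like the other groups. The count of called genes fell to 111 without Lgr5hi_Ki67hi replicate 1, to 108 without its replicate 2 and to 177 without Lgr5med_Ki67low replicate 1, and it rose to 619 without Lgr5med_Ki67hi replicate 4, the array with the lowest mean correlation to the others (0.986). With each array centred on its median, 64.5% of 406 called genes were higher, against 76.0% of the 408.

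**Figure D1:**
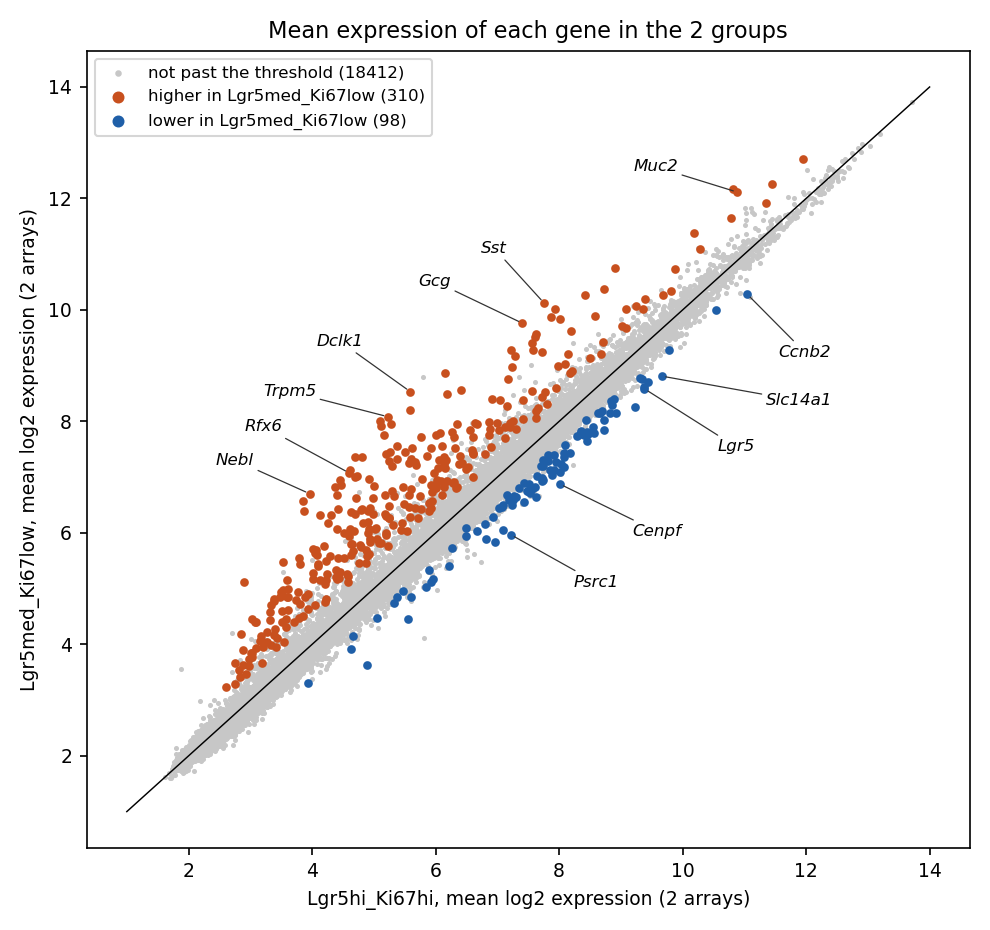
Mean log2 expression of 18820 genes in Lgr5hi_Ki67hi (x axis, 2 arrays) and Lgr5med_Ki67low (y axis, 2 arrays), with the diagonal marking equal means. The largest of the 310 rises (orange) lie farther from the diagonal than the largest of the 98 falls (blue), and named points mark examples from the text.

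Both sorted markers were lower in Lgr5med_Ki67low, and since the gates chose the cells by these reporters the values check the labels and are no finding. Lgr5, the receptor for R-spondin that marks the stem cells, was at 9.39 and 9.38 in Lgr5hi_Ki67hi and at 8.76 and 8.41 in Lgr5med_Ki67low. The difference was -0.80 ± 0.16 (SE; adjusted p = 0.0312), and it missed the threshold without either Lgr5hi_Ki67hi array, without Lgr5med_Ki67hi replicate 1 and without Lgr5med_Ki67low replicate 2 (adjusted p 0.212, 0.211, 0.0581 and 0.169). Lgr5 stood at 10.02 and 10.43 in Lgr5hi_Ki67low and between 7.29 and 7.56 in Lgr5med_Ki67hi. Both Lgr5med_Ki67low arrays thus read higher than the other GFP-medium arrays, a difference that was not tested. Mki67, which encodes the Ki67 protein of dividing cells, was at 10.19 and 10.18 in Lgr5hi_Ki67hi and at 9.75 and 9.83 in Lgr5med_Ki67low. That difference of -0.39 ± 0.13 did not pass (adjusted p = 0.223). The arrays of the groups did not overlap, as in 29.1% of all genes in that direction.

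Genes of G2 phase and mitosis were lower in Lgr5med_Ki67low. Of 77 measured members, 41 fell and 0 rose, against 0.521% of all genes that fell, and the median difference was -0.65. All 77 differences lay below 0, from -1.25 to -0.09, and the sorted marker Mki67 is among them. The RFP gate sorted on Ki67, a protein of dividing cells, so the direction of this list is not independent of the sort. Psrc1, a spindle protein that stabilises microtubules, read 7.39 and 7.04 in Lgr5hi_Ki67hi and 5.90 and 6.04 in Lgr5med_Ki67low, a fall of 1.25 ± 0.13 on the log2 scale (adjusted p = 0.00107). Pimreg, a regulator of mitotic exit, read 5.0 and 4.77 against 3.58 and 3.68 (-1.25 ± 0.13, adjusted p = 0.00107). Ect2, the exchange factor that starts the cleavage furrow, read 9.39 and 9.37 against 8.51 and 8.71 (-0.77 ± 0.09, adjusted p = 0.00255). In these genes, as in every called gene, the arrays of the compared groups did not overlap. The calls of Psrc1, Pimreg and Ect2 held in all 10 fits that each left out 1 array. The list's count dropped to 5 and 4 without Lgr5hi_Ki67hi replicate 1 or 2 and to 6 without Lgr5med_Ki67low replicate 1, and stood between 31 and 54 without any other single array.

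The fall covered successive steps of division. Among regulators of mitotic entry and exit, the cyclins Ccnb2 (-0.77 ± 0.15) and Ccna2 (-0.54 ± 0.10), the spindle kinase Aurka (-0.65 ± 0.13) and Cdc20 (-0.67 ± 0.14), the activator of the anaphase-promoting complex, passed with adjusted p of 0.0285, 0.0223, 0.0355 and 0.0356. Among spindle and centromere genes, Cenpf read 8.0 and 8.02 in Lgr5hi_Ki67hi and 6.65 and 7.10 in Lgr5med_Ki67low, a fall of 1.13 ± 0.18 (adjusted p = 0.0104). Aspm, which holds the spindle poles together, read 7.67 and 7.58 against 6.37 and 6.92 (-0.98 ± 0.15, adjusted p = 0.00999). Among genes of cell separation, Cep55, which recruits the final cutting machinery, fell by 0.79 ± 0.10 (adjusted p = 0.00393) and the motor Kif23 fell by 0.73 ± 0.11 (adjusted p = 0.00669). Each of these 8 calls was lost without at least 1 array: Cep55 without Lgr5hi_Ki67hi replicate 2 alone (adjusted p = 0.0558), Aspm without either Lgr5hi_Ki67hi array (0.111 and 0.0824), and the other 6 without Lgr5hi_Ki67hi replicate 1, its replicate 2 or Lgr5med_Ki67low replicate 1 (highest adjusted p 0.277, for Cdc20). Without Lgr5med_Ki67hi replicate 1, Ccnb2 and Cdc20 also missed the threshold (adjusted p 0.0516 and 0.0637), as did Ccnb2, Aurka and Cdc20 without its replicate 2 (0.0539, 0.0656 and 0.0539) and Aurka without its replicate 3 (0.0532). Cdc20 missed it too without either Lgr5hi_Ki67low array (0.0547 in both fits) and without Lgr5med_Ki67low replicate 2 (0.0647). Nek2 (-0.80 ± 0.18) and Cdc25c (-0.81 ± 0.20) had adjusted p of 0.0587 and 0.0775.

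The promoters of the mitotic genes are shown because these members moved together. The DREAM complex is known to restrain such genes outside G2 phase and mitosis through an element called CHR, and the factor NF-Y activates them through the CCAAT box. Sequences are from RefSeq on GRCm38.p6 and run 5′ to 3′ on the gene's strand, from 150 bases before to 30 after the annotated start of the first listed window. They belong to the members with the smallest p that had a window: Psrc1 (chr3:108383654-108383833, plus strand), Ect2 (chr3:27153849-27154028, minus strand), Cep55 (chr19:38054834-38055013, plus strand) and Ckap2l (chr2:129297183-129297362, minus strand). Capitals mark TTTGAA, the letters of the CHR, and CCAAT, on either strand (TTCAAA and ATTGG on the other).
Psrc1: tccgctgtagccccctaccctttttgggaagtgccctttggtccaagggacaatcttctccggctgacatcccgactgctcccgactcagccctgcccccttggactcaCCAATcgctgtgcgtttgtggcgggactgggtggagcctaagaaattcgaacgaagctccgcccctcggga
Ect2: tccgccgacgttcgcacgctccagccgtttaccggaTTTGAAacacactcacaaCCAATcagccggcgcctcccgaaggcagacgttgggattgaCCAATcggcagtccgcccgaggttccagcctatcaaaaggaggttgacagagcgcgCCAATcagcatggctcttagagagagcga
Cep55: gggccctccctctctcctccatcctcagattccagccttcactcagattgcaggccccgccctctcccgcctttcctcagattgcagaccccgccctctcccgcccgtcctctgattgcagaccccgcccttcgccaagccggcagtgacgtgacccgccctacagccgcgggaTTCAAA
Ckap2l: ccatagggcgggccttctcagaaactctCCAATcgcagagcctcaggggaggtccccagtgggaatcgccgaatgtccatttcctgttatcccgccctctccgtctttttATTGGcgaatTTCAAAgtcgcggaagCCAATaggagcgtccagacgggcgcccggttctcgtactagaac
Ect2, Cep55 and Ckap2l hold 1 TTTGAA match each in this stretch, and Psrc1 holds none. Ect2 and Ckap2l hold 3 CCAAT matches each, Psrc1 holds 1 and Cep55 none.

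Over whole windows of 300 bases (250 before to 50 after the start), 35 of the 41 lower genes had 40 windows in the RefSeq table. TTTGAA occurred in 77.5% of these windows and CCAAT in 75%, and 57.5% held both. Of the 36 members that did not pass, 30 had 32 windows, of which 50% held TTTGAA, 71.9% CCAAT and 46.9% both. In all 32851 RefSeq windows the shares were 17.9%, 37.4% and 6.95%. The 49 windows of S phase genes held TTTGAA in 18.4%, CCAAT in 59.2% and both in 8.16%. Neither motif contains the other, and each was counted without regard to the other. These are matches of letters, given as a description with no test.

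Of 47 measured genes of S phase and DNA replication, 1 (2.13%) fell and 0 rose, against 0.521% of all genes that fell. The median difference was -0.13. The member that fell was Dbf4, the activator of the kinase that fires replication origins, at 8.09 and 8.10 in Lgr5hi_Ki67hi and 7.66 and 7.49 in Lgr5med_Ki67low (-0.52 ± 0.11, adjusted p = 0.0378). Dbf4 held its call only without Lgr5med_Ki67hi replicate 4, and its adjusted p in the other 9 fits ran from 0.056 to 0.255. Mcm10, a replication factor, read 7.75 and 7.71 against 7.29 and 7.41 (-0.38 ± 0.09, adjusted p = 0.0793). Of 34 condensin, cohesin and chromatin genes, 2 (5.88%) fell and 0 rose (median -0.24): the condensin subunits Ncaph (-0.48 ± 0.09, adjusted p = 0.0225) and Smc2 (-0.40 ± 0.09, adjusted p = 0.0428). Of 47 MYC and ribosome biogenesis genes, 1 (2.13%) fell and 0 rose (median -0.24): Ppan, a factor for the large ribosomal subunit (-0.43 ± 0.09, adjusted p = 0.0338). Without either Lgr5hi_Ki67hi array or either Lgr5med_Ki67low array, Ncaph, Smc2 and Ppan missed the threshold (highest adjusted p 0.339, for Smc2), and Smc2 and Ppan did so also without either Lgr5hi_Ki67low array and without Lgr5med_Ki67hi replicate 1 or 2 (0.0585 to 0.0732), with Smc2 missing it in addition without replicate 3 (0.0676). Although most members of these lists did not pass, 44 of the 47 MYC and ribosome biogenesis genes and 32 of the 34 condensin and chromatin genes had differences below 0. The median over all genes was itself below 0, at -0.03. Both Lgr5med_Ki67low arrays lay below both Lgr5hi_Ki67hi arrays in 29.1% of all genes and above them in 20%.

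Some inhibitors of the cell cycle rose. Of 31 measured members, 4 rose and 0 fell, against 1.65% of all genes that rose, with a median of 0.11. Cdkn1a, which encodes the CDK inhibitor p21, read 7.55 and 7.29 in Lgr5hi_Ki67hi and 8.51 and 8.27 in Lgr5med_Ki67low (0.97 ± 0.17, adjusted p = 0.0177). Cdkn1c, which encodes a second inhibitor of the family, read 4.96 and 4.30 against 5.75 and 5.45 (0.97 ± 0.18, adjusted p = 0.0235). Gadd45a, a stress-induced growth arrest gene, rose by 0.56 ± 0.09 (adjusted p = 0.0116) and Klf4, a transcription factor of post-mitotic epithelium, by 1.11 ± 0.22 (adjusted p = 0.0322). The count fell to 1 and 0 without Lgr5hi_Ki67hi replicate 1 or 2 and to 0 without Lgr5med_Ki67low replicate 1, where adjusted p reached 0.276 for Klf4 and 0.204 for Cdkn1c. The difference of Cdkn1c was 0.65 without Lgr5hi_Ki67hi replicate 2, and that of Klf4 was 0.69 without Lgr5med_Ki67low replicate 1. Klf4 also missed the threshold without either Lgr5hi_Ki67low array (0.0571) and without Lgr5med_Ki67hi replicate 1 or 2 (0.0583 and 0.0558).

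Some stem cell markers fell. Of 38 measured members, 6 (15.8%) fell and 0 rose, against 0.521% of all genes that fell. The median was -0.43, against -0.03 over all genes, and 34 differences lay below 0. Slc14a1, a urea transporter, read 9.62 and 9.70 in Lgr5hi_Ki67hi and 8.95 and 8.67 in Lgr5med_Ki67low (-0.85 ± 0.15, adjusted p = 0.0176). Tnfrsf19, a Wnt target receptor known from stem cells, read 6.22 and 6.22 against 5.46 and 5.36 (-0.80 ± 0.15, adjusted p = 0.0221). Sfrp5, a secreted Wnt antagonist, read 7.57 and 7.54 against 6.61 and 6.96 (-0.77 ± 0.16, adjusted p = 0.0364). The water channel Aqp4 (-0.56 ± 0.12) and the chloride channel Clic6 (-0.52 ± 0.10) passed with adjusted p of 0.0409 and 0.0323. The remaining member was Lgr5 itself, which the GFP gate chose, so its part in the count is no finding. The count was 0 without either Lgr5hi_Ki67hi array, 2 without Lgr5med_Ki67hi replicate 1, 3 without its replicate 2, 2 without either Lgr5med_Ki67low array and 14 without Lgr5med_Ki67hi replicate 4. All 6 genes were highest in Lgr5hi_Ki67low, and 5 of them were lowest in Lgr5med_Ki67hi.

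Several of the best known stem cell genes did not pass. Smoc2, a matricellular protein of the crypt base, read 9.79 and 9.81 against 9.32 and 9.41 (-0.44 ± 0.11, adjusted p = 0.0964). Ascl2, the transcription factor that sets stem cell identity, read 8.29 and 7.94 against 7.56 and 7.70 (-0.49 ± 0.20, adjusted p = 0.329). Olfm4 read 12.47 and 12.55 against 12.32 and 12.29, the smallest of these differences (-0.21 ± 0.11, adjusted p = 0.504). The Wnt target Axin2 read 8.85 and 8.75 against 8.19 and 8.12 (-0.64 ± 0.22, adjusted p = 0.23), and Cdca7 read 10.86 and 10.99 against 10.25 and 10.35 (-0.63 ± 0.14, adjusted p = 0.052). In each of these 5 genes both Lgr5med_Ki67low arrays were lower than both Lgr5hi_Ki67hi arrays, as in 29.1% of all genes. Among 12 proposed reserve stem cell markers, 2 (16.7%) rose, against 1.65% of all genes. Both belong to differentiated lineages as well: Dclk1, a tuft cell gene, and Prox1, an enteroendocrine gene, whose values stand with those lists. Hopx read 8.42 and 8.44 against 8.11 and 8.20 (-0.28 ± 0.18, adjusted p = 0.597) and Tert 5.94 and 6.05 against 5.61 and 5.73 (-0.33 ± 0.11, adjusted p = 0.194).

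The signalling pathways of the niche held 5 calls. In the Wnt list, 3 of 35 members (8.57%) fell, against 0.521% of all genes (median -0.08), and they are the stem cell markers Lgr5, Tnfrsf19 and Sfrp5. Lgr5 was chosen by the GFP gate, so its part in this count is no finding. In the Notch list, 1 of 24 (4.17%) fell: Nrarp, a Notch target that limits the pathway, at 7.12 and 6.94 against 6.41 and 6.50 (-0.58 ± 0.12, adjusted p = 0.045). The Notch ligands Dll1 and Dll4, which secretory daughters present to their neighbours, read 7.90 and 7.88 in Lgr5med_Ki67low replicate 1 and 7.10 and 6.86 in replicate 2, above 6.65 and 6.73 and above 6.46 and 6.52 in Lgr5hi_Ki67hi (adjusted p 0.133 and 0.15). In the BMP list, 1 of 24 (4.17%) rose, against 1.65% of all genes: Id4, an inhibitor of basic helix-loop-helix factors, at 4.13 and 3.98 against 4.69 and 4.74 (0.66 ± 0.10, adjusted p = 0.00697, and 0.0982 without Lgr5hi_Ki67hi replicate 2). In the EGF list, 0 of 25 passed by limma, and the median difference was 0.05. Nrarp kept its call only without Lgr5med_Ki67hi replicate 3 or 4, with adjusted p from 0.0587 to 0.338 in the other 8 fits.

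**Figure D2:**
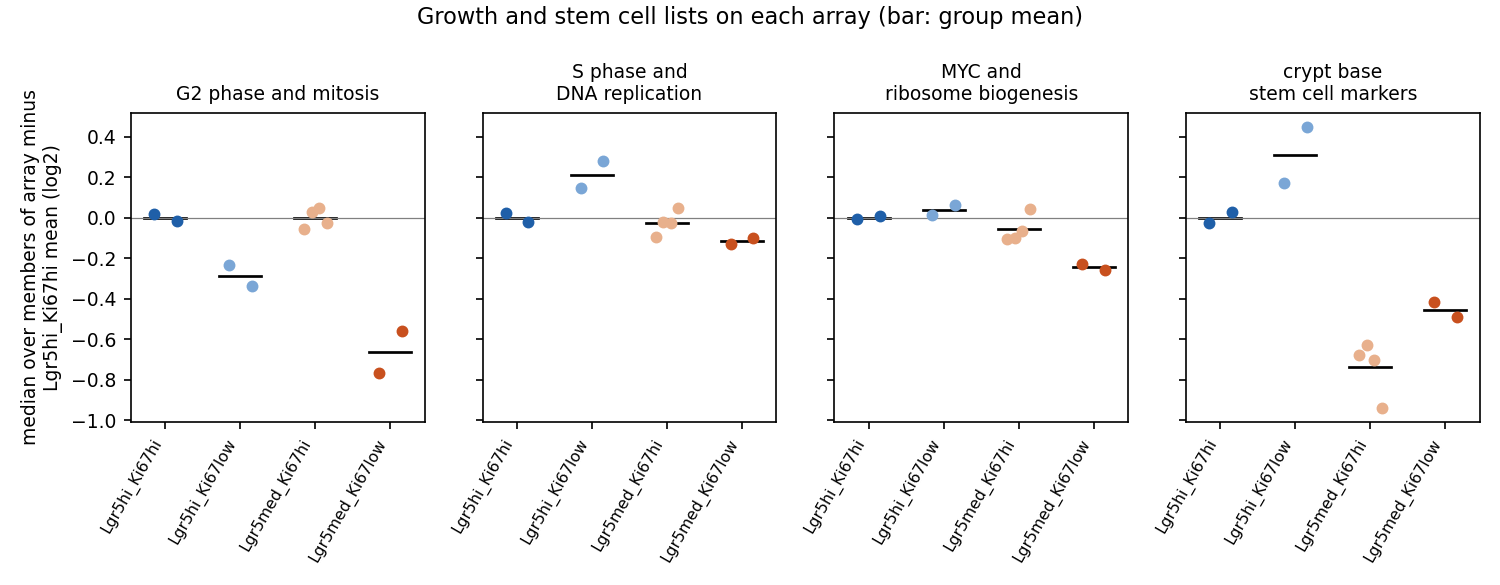
Median over the members of 4 gene lists of the value on each array minus the Lgr5hi_Ki67hi mean (y axis, log2), by sort group (x axis). Points are arrays and bars are group means. The mitotic list sits at -0.77 and -0.56 on the 2 Lgr5med_Ki67low arrays, below every other array, whereas the stem cell list is lower still in Lgr5med_Ki67hi.

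Across the 4 groups, the called mitotic genes had their lowest mean in Lgr5med_Ki67low in 41 of 41 cases. Their place below Lgr5hi_Ki67hi was fixed by the call, so only the order against the other groups is description. Their highest mean was in Lgr5hi_Ki67hi for 28 genes and in Lgr5med_Ki67hi for 12. The median of the list relative to Lgr5hi_Ki67hi was -0.23 and -0.34 on the Lgr5hi_Ki67low arrays and between -0.06 and 0.05 on the Lgr5med_Ki67hi arrays. The stem cell list ran in another order, at 0.17 and 0.45 in Lgr5hi_Ki67low, -0.42 and -0.49 in Lgr5med_Ki67low and -0.63 to -0.94 in Lgr5med_Ki67hi. In sorted bulk samples, fewer cells of a type and less RNA per cell cannot be told apart.

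The transcription factors that specify enteroendocrine cells rose. Of 30 measured members, 12 (40%) rose and 0 fell, against 1.65% of all genes that rose. The median was 0.42. All 12 rose at least 2-fold, as did 0.882% of all genes. Rfx6, which drives endocrine development in gut and pancreas, read 4.77 and 4.43 in Lgr5hi_Ki67hi and 7.29 and 6.86 in Lgr5med_Ki67low (2.47 ± 0.15, 5.56-fold, adjusted p = 0.000104). Neurod1, which acts after commitment, read 4.75 and 4.65 against 7.35 and 6.65 (2.30 ± 0.20, adjusted p = 0.00062). Pax4, which favours serotonin and somatostatin cells, rose by 1.47 ± 0.14 and Pax6 by 1.32 ± 0.12 (adjusted p 0.000808 for each), and St18 rose by 1.70 ± 0.17 (adjusted p = 0.00107). These 5 calls held in all 10 fits that each left out 1 array. Neurog3, the factor that starts the endocrine programme and is then switched off, read 5.88 and 5.50 against 7.69 and 6.73 (1.52 ± 0.26, adjusted p = 0.0155). Isl1 rose by 2.18 ± 0.31, Insm1 by 1.36 ± 0.19, Nkx2-2 by 1.36 ± 0.21, Runx1t1 by 1.17 ± 0.17, Myt1 by 1.01 ± 0.18 and Prox1 by 1.17 ± 0.24. The count was 6 without Lgr5hi_Ki67hi replicate 1 and 5 without its replicate 2, and the adjusted p without replicate 2 was 0.173 for Neurog3, 0.0768 for Isl1, 0.06 for Insm1, 0.0922 for Nkx2-2, 0.0731 for Runx1t1, 0.17 for Myt1 and 0.334 for Prox1. Without replicate 1, Neurog3, Insm1, Nkx2-2, Runx1t1, Myt1 and Prox1 had adjusted p from 0.0568 to 0.124. Prox1 also missed the threshold without either Lgr5hi_Ki67low array (0.0664), without Lgr5med_Ki67hi replicate 1 or 2 (0.0685 and 0.067) and, like Myt1 (0.114), without Lgr5med_Ki67low replicate 1 (0.269).

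Peptide hormone genes rose with them, with 13 of 24 measured members (54.2%) higher and 0 lower (median 0.70), against 1.65% of all genes that rose. Ghrl, which encodes the appetite hormone ghrelin, read 8.01 and 7.72 in Lgr5hi_Ki67hi and 9.66 and 10.08 in Lgr5med_Ki67low (2.0 ± 0.25, 4.01-fold, adjusted p = 0.00286). Gcg, which encodes the precursor of the glucagon-like peptides, read 7.76 and 7.06 against 9.91 and 9.61 (2.36 ± 0.36, adjusted p = 0.00871). Sst, which encodes somatostatin, read 7.82 and 7.69 against 10.09 and 10.16 (2.37 ± 0.43, adjusted p = 0.019). Tac1, the gene of substance P, made in serotonin cells, had the largest difference of the list, from 6.16 and 6.14 to 8.95 and 8.80 (2.73 ± 0.41, adjusted p = 0.00843). Cck, for cholecystokinin, rose by 2.06 ± 0.28 (adjusted p = 0.00513) and Gip, for the glucose-dependent incretin, by 1.86 ± 0.37 (adjusted p = 0.0294). The granule proteins Chga (2.08 ± 0.36, adjusted p = 0.0155), Chgb (1.94 ± 0.21, adjusted p = 0.00124) and Scg3 (1.37 ± 0.13, adjusted p = 0.000976) belong to the same list. Sct, Nts, Iapp and Pyy rose by 1.05, 1.17, 0.72 and 0.57. In all 13 genes, as in every called gene, the arrays of the compared groups did not overlap.

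The hormone calls of Scg3, Chgb and Ghrl held in all 10 fits that each left out 1 array. The hormone count was 6 without Lgr5hi_Ki67hi replicate 1, 3 without its replicate 2 and 7 without either Lgr5med_Ki67low array. Without Lgr5hi_Ki67hi replicate 2, adjusted p was 0.111 for Gcg, 0.17 for Sst and Chga, 0.0925 for Tac1, 0.0692 for Cck, 0.257 for Gip, 0.137 for Sct, 0.233 for Nts, 0.0875 for Iapp and 0.374 for Pyy. Adjusted p was 0.0566 to 0.141 for Sst, Tac1, Cck, Gip, Chga, Sct and Pyy without Lgr5hi_Ki67hi replicate 1, and 0.0502 to 0.15 for Gcg, Sst, Tac1, Cck, Gip, Chga and Pyy without Lgr5med_Ki67low replicate 1. Without Lgr5med_Ki67low replicate 2 it was 0.0607 to 0.213 for Sst, Gip, Chga, Sct, Nts and Pyy. Without Lgr5med_Ki67hi replicate 2, Gip (0.0525) and Pyy (0.0794) missed the threshold as well, and Pyy did so also without Lgr5med_Ki67hi replicate 1 (0.0694) and without either Lgr5hi_Ki67low array (0.0701). For 0 of the 13 genes was the lowest group mean in Lgr5hi_Ki67hi. Gip read 9.08 and 8.72 there, 7.5 and 8.20 in Lgr5hi_Ki67low and 7.27 to 8.61 in Lgr5med_Ki67hi. Ghrl read 6.96 and 6.78 in Lgr5hi_Ki67low and 6.63 to 7.36 in Lgr5med_Ki67hi, below both Lgr5hi_Ki67hi arrays. For the 13 genes that rose, the highest group mean was in Lgr5med_Ki67low in every case. That it exceeded the Lgr5hi_Ki67hi mean was fixed by the call.

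The machinery that packs and releases hormones rose too, in 17 of 40 measured members (42.5%) with 0 lower, against 1.65% of all genes. The median was 0.50, and 39 differences lay above 0. Cpe, an enzyme that trims prohormones, read 4.57 and 4.25 in Lgr5hi_Ki67hi and 6.65 and 6.69 in Lgr5med_Ki67low (2.26 ± 0.16, 4.79-fold, adjusted p = 0.000201). Scgn, the calcium-binding protein secretagogin, read 4.59 and 4.32 against 6.98 and 6.91 (2.49 ± 0.20, adjusted p = 0.000501). Pcsk1, the prohormone convertase that makes the glucagon-like peptides, read 6.24 and 6.30 against 7.78 and 7.83 (1.53 ± 0.18, adjusted p = 0.00203). The vesicle genes Rab3c (1.56 ± 0.15), Cadps (1.25 ± 0.14) and Snap25 (0.96 ± 0.12) passed with adjusted p of 0.000808, 0.00174 and 0.00356. The calls of these 6 genes held in all 10 fits that each left out 1 array, as did 11 of the 17. In the serotonin list, 2 of 12 (16.7%) rose, against 1.65% of all genes. Tph1, the enzyme that starts serotonin synthesis, read 5.72 and 5.81 against 7.52 and 7.92 (1.95 ± 0.38, adjusted p = 0.0272). The vesicle transporter Slc18a1 rose by 1.29 ± 0.18 (adjusted p = 0.00506). Without Lgr5hi_Ki67hi replicate 2, adjusted p was 0.179 for Tph1 and 0.0747 for Slc18a1, and Tph1 missed the threshold also without Lgr5hi_Ki67hi replicate 1 (0.197) and without Lgr5med_Ki67low replicate 1 or 2 (0.101 and 0.134).

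Receptors by which enteroendocrine cells sense nutrients and hormones rose in 4 of 29 measured members (13.8%), with 0 lower (median 0.23). The share of all genes that rose was 1.65%. They were the fatty acid receptors Ffar3 (1.26 ± 0.21, adjusted p = 0.0116), Ffar1 (0.73 ± 0.15, adjusted p = 0.0376) and Ffar4 (1.26 ± 0.27, adjusted p = 0.0437) and the somatostatin receptor Sstr1 (0.78 ± 0.10, adjusted p = 0.00356). Sstr1 lost its call only without Lgr5hi_Ki67hi replicate 1 (0.0532), whereas the count was 0 in that fit, 1 without Lgr5hi_Ki67hi replicate 2 and 2 without either Lgr5hi_Ki67low array, without Lgr5med_Ki67hi replicate 1 or 2 or without Lgr5med_Ki67low replicate 1 (highest adjusted p of the list 0.287, for Ffar1). Ffar3 missed the threshold without Lgr5med_Ki67low replicate 2 (0.0665) and Ffar4 without Lgr5med_Ki67hi replicate 3 (0.0607), and the difference of Ffar4 was 0.79 without Lgr5med_Ki67low replicate 1. The 4 enteroendocrine lists and the serotonin list together hold 134 measured genes, of which 47 (35.1%) rose and 0 fell.

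**Figure D3:**
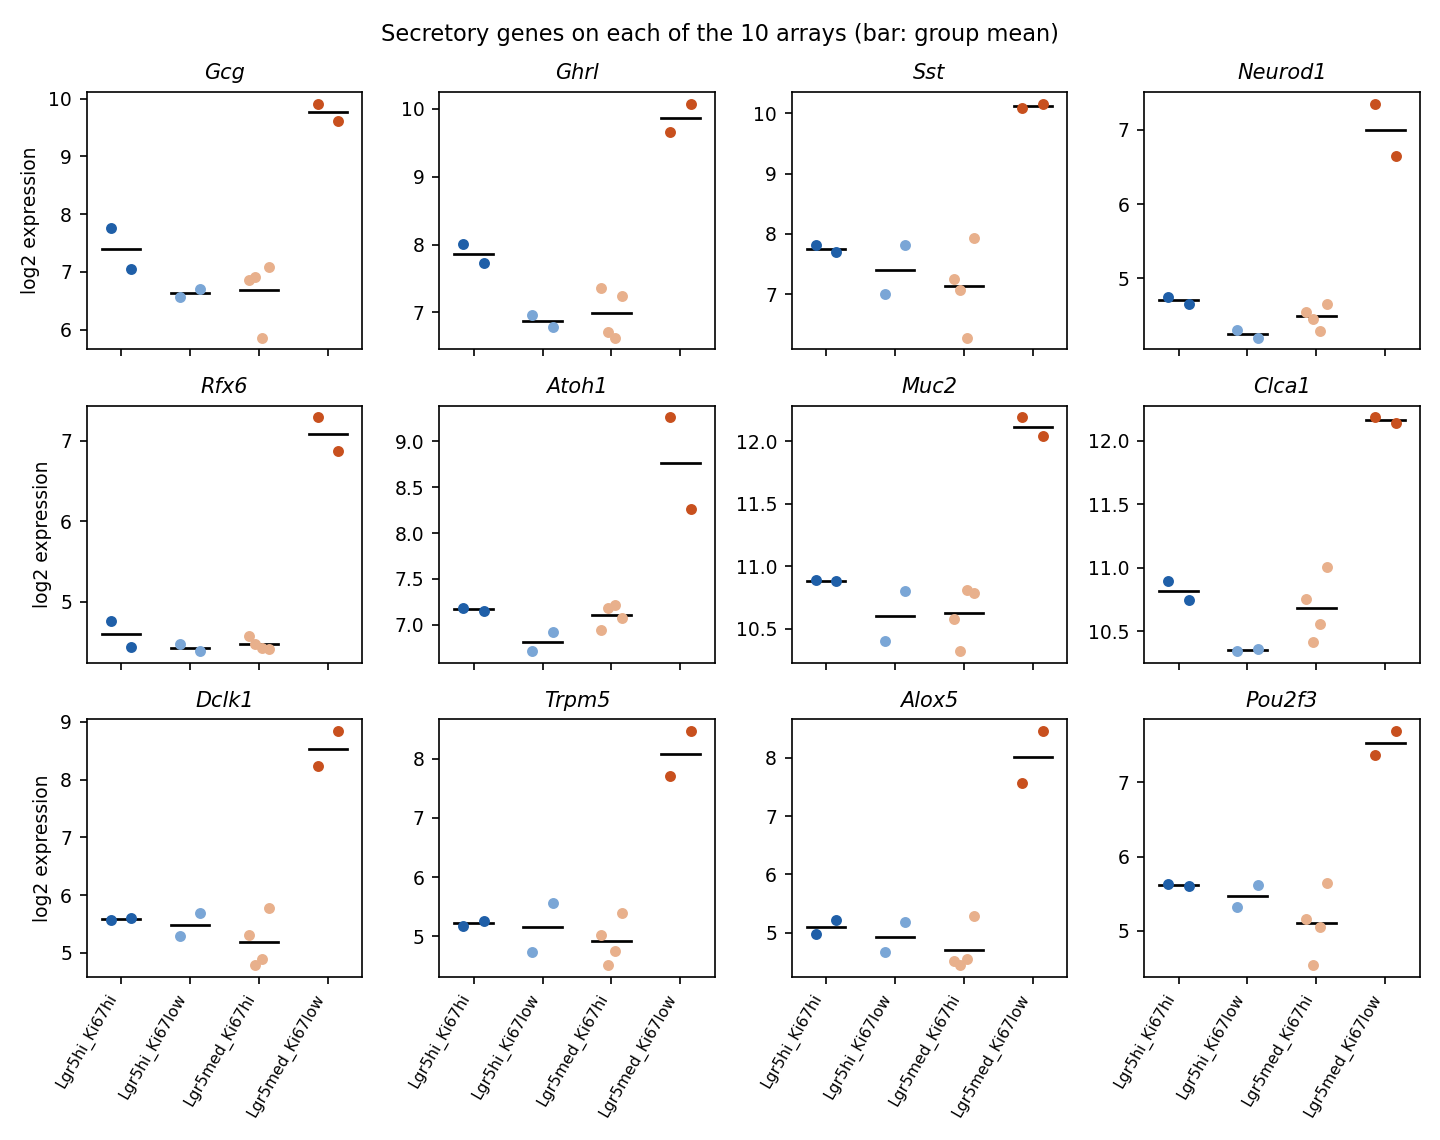
Log2 expression (y axis of each panel, own scale) of 12 enteroendocrine, goblet and tuft cell genes on the 10 arrays by sort group (x axis). Points are arrays and bars are group means. In every panel both Lgr5med_Ki67low arrays lie above all 8 other arrays. All 12 genes were picked from those called higher, which fixes their place above the Lgr5hi_Ki67hi arrays.

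The 3 called genes with the largest rises, Dclk1, Alox5 and Trpm5, are tuft cell genes. Dclk1, the kinase that marks tuft cells, read 5.58 and 5.60 in Lgr5hi_Ki67hi and 8.23 and 8.84 in Lgr5med_Ki67low (2.95 ± 0.31, 7.72-fold, adjusted p = 0.00109). With the mean of its probe sets in place of the brightest one, the difference of Dclk1 was 1.55 ± 0.16 (adjusted p = 0.00101). In the list of tuft cell regulators, cytokines and structural markers, 18 of 39 measured members (46.2%) rose and 0 fell (median 0.63). The share of all genes that rose was 1.65%. Avil, an actin-binding protein of the tuft, read 5.29 and 5.06 against 7.47 and 8.05 (2.59 ± 0.28, adjusted p = 0.00144). Spib, a transcription factor shared with lymphoid cells, read 4.87 and 4.75 against 7.04 and 7.68 (2.55 ± 0.22, adjusted p = 0.000629). Kctd12 (2.15 ± 0.16) and Atp2a3, a calcium pump (1.84 ± 0.13), had the smallest p of the list after adjustment, at 0.000304 and 0.000261. Pou2f3, the master regulator of the lineage, read 5.63 and 5.60 against 7.37 and 7.69 (1.91 ± 0.28, adjusted p = 0.00678). The receptor for interleukin 25, Il17rb, rose by 1.36 ± 0.24 (adjusted p = 0.0164) and Gfi1b, a tuft cell transcription factor, by 1.15 ± 0.19 (adjusted p = 0.0111). Dclk1, Avil, Spib, Kctd12 and Atp2a3 kept their calls in all 10 fits that each left out 1 array. The list's count was 9 and 8 without Lgr5hi_Ki67hi replicate 1 or 2, with adjusted p of 0.0725 and 0.0807 for Pou2f3, 0.161 and 0.0997 for Il17rb and 0.132 and 0.086 for Gfi1b, and Gfi1b reached 0.0629 without Lgr5med_Ki67low replicate 2.

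Tuft cells detect luminal signals with parts of the taste pathway. Of 22 measured taste signalling genes, 3 (13.6%) rose with 0 lower (median 0.19), against 1.65% of all genes that rose. Trpm5, the cation channel that depolarises the cell, read 5.18 and 5.27 in Lgr5hi_Ki67hi and 7.71 and 8.46 in Lgr5med_Ki67low (2.86 ± 0.33, 7.25-fold, adjusted p = 0.00206). Plcb2, the phospholipase upstream of it, read 4.54 and 4.30 against 6.11 and 6.75 (2.01 ± 0.22, adjusted p = 0.00147). Rgs2 rose by 2.19 ± 0.29 (adjusted p = 0.00439, and 0.0698 without Lgr5hi_Ki67hi replicate 2), whereas Trpm5 and Plcb2 passed in every such fit. Rgs13 had the largest difference of the list but did not pass, at 5.86 and 5.75 against 8.15 and 9.42 (2.99 ± 0.72, adjusted p = 0.0741), and it ranged from 4.25 to 6.79 in Lgr5med_Ki67hi. Gnat3, the taste G protein, read 2.36 and 2.60 against 2.65 and 3.24 (0.47 ± 0.19, adjusted p = 0.347). Without Lgr5med_Ki67hi replicate 4 the taste list had 5 calls.

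The enzymes of leukotriene and prostaglandin synthesis rose in 5 of 24 measured members (20.8%) with 0 lower (median 0.17), against 1.65% of all genes. Alox5, which starts leukotriene synthesis, read 4.98 and 5.22 against 7.56 and 8.46 (2.91 ± 0.33, adjusted p = 0.00177). Its partner Alox5ap read 5.31 and 5.25 against 7.46 and 8.44 (2.67 ± 0.35, adjusted p = 0.00356). Ltc4s, which makes leukotriene C4, rose by 1.62 ± 0.26 (adjusted p = 0.0108), Hpgds, which makes prostaglandin D2, by 1.68 ± 0.18 (adjusted p = 0.00138) and the secreted phospholipase Pla2g10 by 1.83 ± 0.23 (adjusted p = 0.00326). A phospholipase, Alox5 with Alox5ap, and Ltc4s are known to act in that order between membrane lipid and leukotriene C4. Ltc4s missed the threshold without Lgr5hi_Ki67hi replicate 2 (0.13), and the other 4 genes passed in all 10 fits that each left out 1 array.

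Signalling adaptors known from blood cells and shared by tuft cells rose in 16 of 31 measured members (51.6%), with 0 lower (median 0.70). The share of all genes that rose was 1.65%. Pik3r5, a regulatory subunit of PI3 kinase gamma, read 4.67 and 4.72 in Lgr5hi_Ki67hi and 7.10 and 7.64 in Lgr5med_Ki67low (2.67 ± 0.16, 6.36-fold, adjusted p = 0.000104). Fyb, an adaptor of immune receptor signalling, read 3.82 and 3.9 against 6.15 and 7.0 (2.72 ± 0.33, adjusted p = 0.00249). The SH2 adaptors Sh2d6 (2.61 ± 0.24) and Sh2d7 (2.81 ± 0.44) passed with adjusted p of 0.000797 and 0.01, and the lipid phosphatase Inpp5d rose by 2.45 ± 0.24 (adjusted p = 0.00096). Vav1 (2.22 ± 0.25), Pik3cg (1.93 ± 0.22) and Plcg2 (1.20 ± 0.12) passed as well. The count was 10 without either Lgr5hi_Ki67hi array, and of the 8 genes named here Sh2d7 missed the threshold without replicate 1 or 2 of that group and without Lgr5med_Ki67low replicate 2 (0.0834, 0.112 and 0.0547). All 16 were higher in Lgr5med_Ki67low replicate 2 than in replicate 1, by a median of 0.69.

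Because these adaptors are also leukocyte genes, the immune markers stand beside them. Of 47 measured immune markers 1 (2.13%) rose and 0 fell (median 0.10), close to the 1.65% of all genes that rose. The mean level of the list was 3.98 and 3.84 in Lgr5hi_Ki67hi and 4.02 and 4.14 in Lgr5med_Ki67low. The gene that rose was Kit, a receptor of mast cells also known from secretory crypt cells, at 6.17 and 6.10 against 7.70 and 7.03 (1.23 ± 0.19, adjusted p = 0.00908). It missed the threshold without either Lgr5hi_Ki67hi array (0.0815 and 0.102). T cell genes were higher in Lgr5med_Ki67low replicate 2 than in replicate 1: Cd3g read 4.07 and 5.24 and Gzma, a killer cell protease, 6.02 and 7.15, against 4.31 and 3.96 and against 5.96 and 5.63 in Lgr5hi_Ki67hi (adjusted p 0.821 and 0.702). The pan-leukocyte gene Ptprc read 5.13 and 4.50 in Lgr5hi_Ki67hi and 5.03 and 5.77 in Lgr5med_Ki67low (adjusted p = 0.473). The part of T cells or other leukocytes in the adaptor values was not tested. The 7 defining markers measured for B cells, macrophages, stroma and endothelium stayed between 2.72 and 4.37 in Lgr5med_Ki67low and between 2.76 and 4.31 in Lgr5hi_Ki67hi, and 0 passed. The epithelial markers Epcam and Cdh1 lay between 11.1 and 11.5 on all 4 arrays.

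The octamer ATGCAAAT is the letter sequence that POU factors such as Pou2f3 are known to bind. The tuft lists hold 115 measured genes, of which 41 (35.7%) rose and 0 fell, against 1.65% of all genes that rose. Among RefSeq windows of the same 300 bases, 5 of 45 windows (11.1%) of the tuft genes that rose held it on either strand. The share was 5.48% in 73 windows of the tuft genes that did not pass and 1.74% in all windows. These counts are small and are given as a description.

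**Figure D4:**
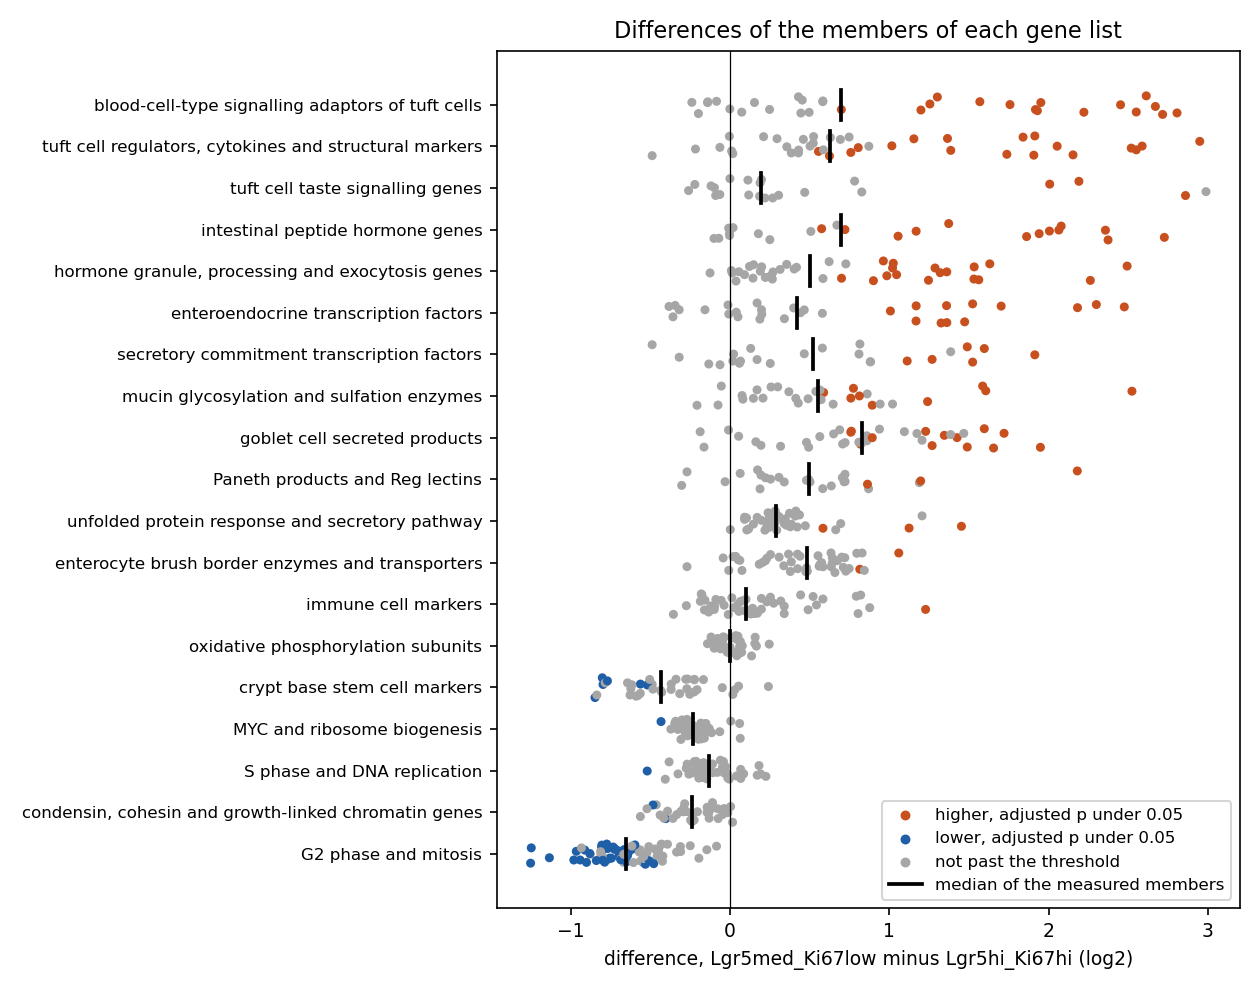
Difference between Lgr5med_Ki67low and Lgr5hi_Ki67hi (x axis, log2) for every measured member of 19 gene lists (rows). Each point is a gene, coloured by its call, and black bars are list medians. The medians run from -0.65 for the mitotic genes to 0.83 for the goblet cell products, with the tuft and enteroendocrine lists stretched to the right by their called members.

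Goblet cell genes rose as well. Of 37 measured secreted products and regulators, 13 (35.1%) rose and 0 fell, against 1.65% of all genes that rose. In this list 34 differences lay above 0, and the median of 0.83 was the highest of the 38 lists. Muc2, the gel-forming mucin, read 10.89 and 10.88 in Lgr5hi_Ki67hi and 12.19 and 12.04 in Lgr5med_Ki67low (1.23 ± 0.18, 2.34-fold, adjusted p = 0.00646). Clca1, a secreted protease of the mucus, read 10.89 and 10.74 against 12.18 and 12.14 (1.34 ± 0.17, adjusted p = 0.00274). Capn9 read 5.59 and 5.40 against 7.56 and 7.33 (1.95 ± 0.16, adjusted p = 0.000501) and Bcas1 5.65 and 5.56 against 7.48 and 7.17 (1.72 ± 0.12, adjusted p = 0.000201). The trefoil peptide Tff3 (0.76 ± 0.14), the mucin-folding disulfide isomerase Agr2 (0.82 ± 0.12) and Guca2a, the gene of guanylin (1.65 ± 0.26), passed with adjusted p of 0.0205, 0.00747 and 0.0102. Bcas1, Capn9 and Clca1 passed in all 10 fits that each left out 1 array. The count was 3 without either Lgr5hi_Ki67hi array, 6 without Lgr5med_Ki67low replicate 1 and 24 without its replicate 2, and without Lgr5hi_Ki67hi replicate 2 adjusted p was 0.0739 for Muc2, 0.184 for Tff3, 0.0925 for Agr2 and 0.127 for Guca2a. Without Lgr5hi_Ki67hi replicate 1 these 4 genes had adjusted p from 0.0544 to 0.133, and without Lgr5med_Ki67low replicate 1 Muc2, Tff3 and Agr2 had 0.0599 to 0.158. Tff3 missed the threshold also without Lgr5med_Ki67low replicate 2 (0.0593).

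The enzymes that glycosylate and sulfate mucins rose in 9 of 30 measured members (30%) with 0 lower (median 0.55), against 1.65% of all genes. Gcnt3, which branches mucin sugars, read 6.30 and 6.40 in Lgr5hi_Ki67hi and 8.29 and 7.61 in Lgr5med_Ki67low (1.60 ± 0.21, adjusted p = 0.0041, and 0.0576 without Lgr5hi_Ki67hi replicate 1). Chst4, a sulfotransferase, read 6.02 and 5.85 against 7.79 and 7.25 (1.59 ± 0.20, adjusted p = 0.00288) and passed in all 10 fits that each left out 1 array. Fut2, the fucosyltransferase of the secretor type, had the largest difference, from 3.97 and 3.77 to 7.35 and 5.44 (2.52 ± 0.51, adjusted p = 0.0337). Its Lgr5med_Ki67low arrays were 1.91 apart, and it kept its call only without Lgr5med_Ki67hi replicate 3 or 4 or Lgr5med_Ki67low replicate 2, with adjusted p from 0.0581 to 0.255 in the other 7 fits. Without Lgr5med_Ki67low replicate 1 the difference of Fut2 was 1.57. The count was 1 and 2 without Lgr5hi_Ki67hi replicate 1 or 2, 3 without Lgr5med_Ki67low replicate 1 and 5 without either Lgr5hi_Ki67low array or without Lgr5med_Ki67hi replicate 1 or 2. Of 42 genes of the unfolded protein response and secretory pathway, 3 (7.14%) rose and 0 fell, against 1.65% of all genes that rose. All 42 differences lay above 0 (median 0.29). Sec24d, a coat protein of vesicles leaving the endoplasmic reticulum, read 7.16 and 7.15 against 8.43 and 8.13 (1.12 ± 0.14, adjusted p = 0.00344) and passed in all 10 fits. Kdelr3 (1.45 ± 0.28, adjusted p = 0.0277) and Edem3 (0.58 ± 0.10, adjusted p = 0.0177) did not pass without Lgr5hi_Ki67hi replicate 1 or 2 or Lgr5med_Ki67low replicate 1 (highest adjusted p 0.19), Kdelr3 missed it also without Lgr5med_Ki67hi replicate 1 (0.0528) and differed by 0.90 without Lgr5med_Ki67low replicate 1, and 7 members passed without Lgr5med_Ki67low replicate 2.

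The factors that commit cells to the secretory lineages rose in 6 of 24 measured members (25%) with 0 lower (median 0.52), against 1.65% of all genes. Atoh1, which starts the secretory programme, read 7.18 and 7.15 in Lgr5hi_Ki67hi and 9.26 and 8.26 in Lgr5med_Ki67low (1.60 ± 0.25, 3.02-fold, adjusted p = 0.0105). Spdef, which drives goblet and Paneth maturation, read 6.90 and 6.93 against 8.80 and 8.01 (1.49 ± 0.23, adjusted p = 0.00891). Creb3l4 read 6.68 and 6.67 against 8.39 and 7.51 (1.27 ± 0.24, adjusted p = 0.023), and Neurog3, Pou2f3 and Klf4 are the others. Creb3l1 had a difference of similar size, 1.38 ± 0.39, but read 8.34 and 6.98 in the replicates and did not pass (adjusted p = 0.136). The count was 0 without either Lgr5hi_Ki67hi array, with adjusted p of 0.0935 and 0.109 for Atoh1, 0.0898 and 0.0922 for Spdef and 0.161 and 0.177 for Creb3l4, which had 0.0677 and a difference of 0.83 without Lgr5med_Ki67low replicate 1. It was 11 without Lgr5med_Ki67low replicate 2.

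Paneth cell genes rose in a small part. Of 25 measured Paneth products and Reg lectins, 3 (12%) rose and 0 fell (median 0.49), against 1.65% of all genes that rose. Reg3b read 10.26 and 10.12 against 11.76 and 11.02 (1.20 ± 0.23, adjusted p = 0.0276). Reg3g read 10.75 and 10.83 against 11.94 and 11.36 (0.86 ± 0.18, adjusted p = 0.0337). Mptx1 read 5.14 and 5.40 against 8.20 and 6.69 (2.18 ± 0.43, adjusted p = 0.031). The Reg3 lectins bind bacteria and are made by several epithelial cell types. The defining Paneth markers Lyz1, Mmp7 and Defa24 differed by -0.30 to 0.49, and 0 of 3 passed. Mmp7, the protease that activates defensins, read 11.54 in Lgr5med_Ki67low replicate 1 and 10.43 in replicate 2, against 10.48 and 10.51. The 3 calls were lost without either Lgr5hi_Ki67hi array and without Lgr5med_Ki67low replicate 1 (adjusted p 0.148 to 0.244), Mptx1 and Reg3g missed the threshold without either Lgr5hi_Ki67low array (0.0564 and 0.0548), as did Reg3b and Reg3g without Lgr5med_Ki67hi replicate 1 (0.0502 and 0.0603) and Reg3g without its replicate 2 (0.0586). Without Lgr5med_Ki67low replicate 1 the differences of Reg3g and Mptx1 were 0.57 and 1.42. Without Lgr5med_Ki67low replicate 2 there were 4 calls.

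Of 46 brush border enzymes and transporters, 2 (4.35%) rose and 0 fell, against 1.65% of all genes that rose. Still, 43 differences lay above 0 (median 0.48). Slc9a3, a sodium-proton exchanger, read 8.03 and 8.27 in Lgr5hi_Ki67hi and 9.32 and 9.11 in Lgr5med_Ki67low (1.06 ± 0.14, adjusted p = 0.00425), and Cdhr5, a protocadherin that links microvilli, read 9.21 and 9.30 against 10.10 and 10.03 (0.81 ± 0.11, adjusted p = 0.00426). Both calls were lost without Lgr5hi_Ki67hi replicate 1 (0.0618 and 0.0617) and held without each of the other 9 arrays. Alpi, the intestinal alkaline phosphatase, read 10.17 and 10.25 against 10.81 and 10.90 (0.64 ± 0.19, adjusted p = 0.155). Of 31 lipid absorption genes, 0 passed by limma (median 0.34). The mean level of the brush border list was 7.84 and 7.80 in Lgr5hi_Ki67hi, 8.09 and 8.44 in Lgr5med_Ki67low and 7.69 to 8.4 in Lgr5med_Ki67hi, so the GFP-medium groups overlapped.

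Of 48 oxidative phosphorylation subunits, 0 passed by limma, and differences ran from -0.14 to 0.25. Of 23 glycolysis genes, 2 rose: Hk1, a hexokinase isoform, at 4.38 and 4.11 against 5.23 and 5.28 (1.01 ± 0.12, adjusted p = 0.00274) in all 10 fits that each left out 1 array, and Pfkfb3, an activator of glycolytic flux (1.03 ± 0.21, adjusted p = 0.0365), which passed only without Lgr5med_Ki67hi replicate 2, 3 or 4, with 0.0517 to 0.245 in the other 7 fits. Lists of fatty acid oxidation (26 genes), sterol synthesis (28), MHC class II (11), claudins and junctions (26) and immediate early genes (30) had 0 calls by limma. The share that rose was 8.7% in the glycolysis list, 6.06% in the interferon list and 3.23% in the stromal list, against 1.65% of all genes. In the interferon list, 2 of 33 rose: Zbp1, a sensor of nucleic acids (1.19 ± 0.17, adjusted p = 0.00646), and Oas2 (2.01 ± 0.31, adjusted p = 0.00956), with adjusted p of 0.0716 and 0.121 without Lgr5hi_Ki67hi replicate 2, 0.0743 for Zbp1 without its replicate 1 and 0.0649 for Oas2 without Lgr5med_Ki67low replicate 1. In the list of stromal and other non-epithelial markers, 1 of 31 rose: Vim, an intermediate filament gene, at 6.35 and 6.01 against 8.61 and 8.37 (2.31 ± 0.19, adjusted p = 0.000501), again in all 10 fits.

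The replicates of Lgr5med_Ki67low differed in the level of several gene lists. Whether the mix of cells differed between these arrays was not tested. All 13 called goblet products were higher in replicate 1 (median 0.49 above replicate 2), as were 10 of 12 enteroendocrine transcription factors (0.58) and 5 of 6 secretory commitment factors (0.86). These lists share genes: Atoh1, Spdef and Creb3l4 are counted with the goblet products too, and Neurog3 with the enteroendocrine factors. The tuft genes went the other way: 3 of 3 taste signalling genes and 13 of 18 regulators were higher in replicate 2, by medians of 0.64 and 0.38. Of the called mitotic genes, 40 of 41 were lower in replicate 1 (median -0.21 against replicate 2). Of the called hormone genes, unlike the enteroendocrine transcription factors, 4 were higher in replicate 1 and 9 in replicate 2, with a small median difference (-0.07). Immediate early genes were higher in replicate 1: the median of that list relative to Lgr5hi_Ki67hi was 0.85 in replicate 1 and -0.01 in replicate 2, and Fos read 9.97 and 8.86. Dusp1, an immediate early phosphatase, read 10.71 and 9.42 in the replicates and 9.34 and 9.06 in Lgr5hi_Ki67hi. The part of the state that these genes mark in the excess of replicate 1 was not tested.

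**Figure D5:**
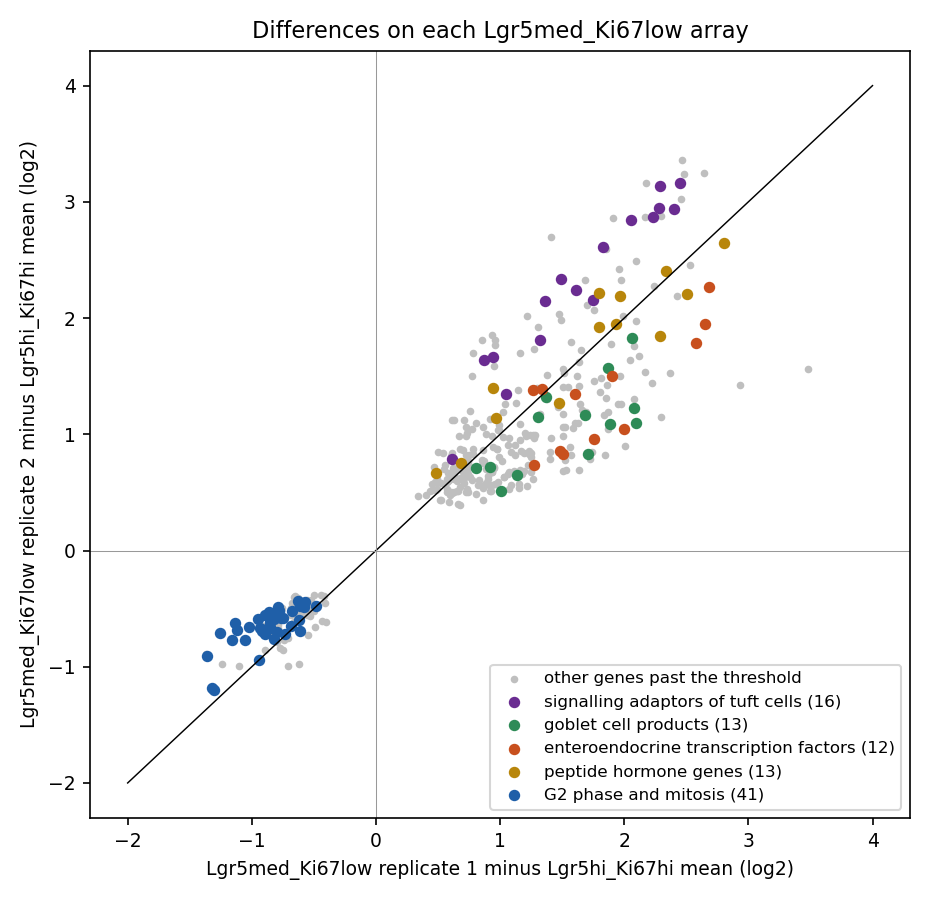
Difference of each called gene from the Lgr5hi_Ki67hi mean on Lgr5med_Ki67low replicate 1 (x axis, log2) and replicate 2 (y axis, log2), with the line of equal differences. The 16 tuft signalling adaptors lie above the line and the 13 goblet products below it. Only called genes are drawn, and every called gene keeps the same sign on both arrays.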

How the data were processed

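RNA of sorted intestinal epithelial cells was hybridised to 10 Affymetrix arrays, 1 sample each. The deposited value table was used as the authors gave it, with values read as log2 expression. This reading is from their range, because no label or header names the log base, background correction or normalization, and centring between arrays is likewise unknown. Per the submitters' processing notes, the tools were GCOS and MAS5, with no role stated for either. The medians over all 35556 rows were 4.385 and 4.382 in Lgr5hi_Ki67hi, 4.3 and 4.402 in Lgr5hi_Ki67low, 4.364, 4.338, 4.371 and 4.235 in Lgr5med_Ki67hi, and 4.377 and 4.358 in Lgr5med_Ki67low.

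Rows were named from GEO's platform annotation of 2016: 21218 had 1 symbol, 1881 had several and 12457 were unnamed here. Rows with several symbols or none were left out, and the row with the highest mean stood for a gene, which left 18820 genes. The linear model had 1 mean for each of the 4 groups and used all 10 arrays (limma 3.58.1 in R 4.3.3; lmFit, eBayes), so the groups share 1 estimate of the spread. Benjamini-Hochberg adjustment covered the whole set of genes, with 0.05 as threshold. A gene rose or fell where it passed, ± is the standard error of the difference, and differences are Lgr5med_Ki67low minus Lgr5hi_Ki67hi. The fit was tested on simulated data.

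The comparison, the 38 gene lists and the rule for named genes were chosen with earlier results of these data known. The rule takes the 20 largest differences past the threshold in each direction (leaving out predicted genes, small RNAs, pseudogenes and sensory receptors outside the lists, and genes whose higher mean is below the median of all genes), 4 members of each list with the smallest p, Lgr5, Mki67 and any member of 5 lists (stem cell markers, hormones, enteroendocrine and secretory transcription factors, taste signalling). Other members named were chosen for their known role after their values were seen. Promoter letters were searched in RefSeq windows of GRCm38.p6. Alternatives were the 4 compared arrays alone, median centring, quantile normalization, a filter on dim genes, the mean of a gene's rows, array weights, trend and robust options, a replicate block, all rows of the table and leaving out each array.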

Additional observations from a re-analysis of the deposited data

Results flagged for a closer look

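In the group of 4 arrays, Lgr5med_Ki67hi, 38 list levels and 252 genes were checked for an array far from the other 3, and 22 values stood apart by Dixon's ratio. Chance alone marks about 1 in 20 such groups. These arrays entered the comparison only through the shared estimate of the spread.

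Replicate 4 held 11 of the 22 values. The mean level of the enteroendocrine transcription factors was 4.69 there, against 4.81 to 4.83 on the other 3 arrays. Alox5 read 5.29 (others 4.45 to 4.56), Kif15 8.42 (others 8.28 to 8.29) and Stxbp5l 3.31 (others 3.12 to 3.15), and these 3 genes were high. The low values were Gas2l3 at 6.87 (others 7.25 to 7.31), Slc26a2 at 7.0 (others 7.41 to 7.44), Kit at 5.65 (others 5.84 to 5.87), Axin2 at 7.37 (others 8.0 to 8.11), Tert at 5.63 (others 5.81 to 5.83), Pde2a at 5.24 (others 5.32 to 5.33) and Rnf43, a Wnt feedback ubiquitin ligase, at 7.80 (others 8.46 to 8.53).

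Replicate 1 was high in Adat1 (5.73, others 5.40 to 5.45), Syt5 (4.64, others 4.03 to 4.09), Bcas1 (5.70, others 5.51 to 5.54), Cdhr5 (9.73, others 9.55 to 9.57) and Mmp7 (10.32, others 9.21 to 9.34). Replicate 2 was low in Papss2 (10.42, others 10.73 to 10.75) and Sec24d (7.66, others 7.84 to 7.87) and high in Oas2 (5.45, others 4.39 to 4.55). Replicate 3 was low in Cacna2d1 (3.13, others 3.35 to 3.38) and Olfm4 (11.90, others 12.14 to 12.16) and high in Reg3g (11.85, others 11.56 to 11.59).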

How the results depend on the processing

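Of 215 named genes that passed, every one kept its direction under the alternatives run. The call was kept by 147 genes in the fit of the 4 compared arrays alone, 208 with median centring, 213 with quantile normalization, 212 with the mean of a gene's rows, 215 with array weights, 209 with trend and robust options and all 211 tested without the dimmest 30% of genes. The total of 408 became 323, 406, 453, 402, 815, 389 and 409 in the same order. Array weights gave 536 higher and 279 lower genes, with 15 stem cell markers and 24 goblet products. Over every row of the value table, 231 rows passed, 194 higher and 37 lower. With the 4 arrays alone, 27 mitotic genes, 7 enteroendocrine transcription factors and 8 goblet products passed. With the mean of a gene's rows, the differences of Dclk1 and Nebl were 1.55 and 1.59, against 2.95 and 2.74. Median centring moved the median of all genes from -0.03 to -0.08.

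Leaving out 1 array at a time gave 108 to 619 called genes, 102 to 416 higher and 6 to 203 lower. The counts ran over 0 to 14 stem cell markers, 4 to 54 mitotic genes, 3 to 13 hormones, 5 to 14 enteroendocrine transcription factors, 12 to 20 granule genes, 8 to 22 tuft regulators, 10 to 18 adaptors and 3 to 24 goblet products. Of the 215 genes, 68 passed in all 10 such fits, among them 14 of the 20 largest rises and 2 of the 20 largest falls. In genes that did not pass, the difference of Cd3g ran from -0.0675 without Lgr5med_Ki67low replicate 2 to 1.11 without replicate 1, and that of Mmp7 from -0.0622 without replicate 1 to 1.05 without replicate 2. The cause of these changes was not tested.

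Replicate 1 of the compared groups did not deviate together with the other group's replicate 1 (correlation -0.028 across genes), so the numbers are not read as pairs. With a replicate block 375 genes passed, 311 of them among the 408. Each group has 2 arrays, signal over background was not given, and a difference of the median standard error, 0.128, cannot be told from the spread.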

Other observations

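Genes outside the 38 lists held 182 of the 310 rises and 46 of the 98 falls, among 17687 genes. Except for Nebl, Pygl, Gas2l3, Amph, Ccna1 and Cttnbp2, which are among the 20 largest differences, the genes named here were chosen after their values were seen. Pde2a, a phosphodiesterase that breaks down cyclic nucleotides, had the smallest adjusted p of those named here. It read 5.32 and 5.17 in Lgr5hi_Ki67hi and 7.34 and 7.22 in Lgr5med_Ki67low (2.04 ± 0.10, limma adjusted p = 3.94e-05). Nebl, an actin-binding protein, read 4.20 and 3.72 against 6.42 and 6.99 (2.74 ± 0.24, adjusted p = 0.000602), and its difference was 1.59 ± 0.15 with the mean of its probe sets (adjusted p = 0.000754). Scin, a calcium-dependent actin-severing protein, read 7.76 and 7.44 against 9.68 and 9.36 (1.92 ± 0.18, adjusted p = 0.000808). Hepacam2, an immunoglobulin-domain membrane protein, read 7.29 and 7.27 against 9.40 and 8.95 (1.90 ± 0.20, adjusted p = 0.00137). The calls of these 4 genes held in all 10 fits that each left out 1 array.

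Further single genes outside the lists rose. Rab27a, which docks secretory granules, rose by 1.61 ± 0.19, Rimbp2, an active zone protein, by 1.62 ± 0.20, Map1b, a microtubule protein of growing axons, by 1.52 ± 0.13, Celf3, a splicing factor, by 1.45 ± 0.14 and Gfra3, a receptor for the ligand artemin, by 1.65 ± 0.17. Their adjusted p ran from 0.000501 for Map1b to 0.00298 for Rimbp2, and all 5 calls held without any single array. Pygl, the liver form of glycogen phosphorylase, rose by 2.38 ± 0.31 (adjusted p = 0.00356, and 0.0532 without Lgr5hi_Ki67hi replicate 2).

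Of the falls outside the lists, Spag5 (-0.79 ± 0.10, adjusted p = 0.00393), Nde1 (-0.73 ± 0.10, adjusted p = 0.00562), Cep72 (-0.64 ± 0.10, adjusted p = 0.0114) and Cep89 (-0.64 ± 0.10, adjusted p = 0.0116) are given as single genes. Gas2l3, which links actin and microtubules in dividing cells, fell by 0.88 ± 0.14, and Ccna1, a cyclin known from the germ line, read 5.52 and 5.61 against 4.32 and 4.59 (-1.11 ± 0.18, adjusted p = 0.0111). The growth factor Fgf1 read 8.55 and 8.57 against 7.72 and 7.87 (-0.77 ± 0.12, adjusted p = 0.0105). Cttnbp2 fell by 1.13 ± 0.21 and Amph by 1.04 ± 0.21, with adjusted p of 0.0235 and 0.031. Each of these 9 calls was lost without Lgr5hi_Ki67hi replicate 2, and 8 of them, all but Spag5, without its replicate 1. Without Lgr5med_Ki67low replicate 1 the calls of Nde1, Cep89, Gas2l3, Ccna1, Fgf1, Cttnbp2 and Amph were lost, without its replicate 2 those of Cep72 and Amph, and without either Lgr5hi_Ki67low array that of Amph. The highest adjusted p without any single array was 0.0568 for Spag5, 0.0692 for Nde1, 0.113 for Cep72, 0.114 for Cep89, 0.133 for Gas2l3, 0.126 for Ccna1, 0.109 for Fgf1, 0.202 for Cttnbp2 and 0.228 for Amph.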
